A study of Saccharomyces cerevisiae with 12 samples.

Results

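Transcript levels in ethanol limited cultures were set against those in maltose limited cultures of the budding yeast Saccharomyces cerevisiae, across the genome. The 6796 probe sets described are those of 9275 non-control probe sets on the array whose signal passed 12 on at least 3 of the 6 ethanol and maltose arrays. The annotation gave 1 gene for 5556 of them, several genes for 258 and none for 982, and 5206 distinct genes were covered. The filter admitted 54 probe sets through the 3 ethanol arrays alone and 11 through the 3 maltose arrays alone. These had to differ between ethanol and maltose, so a call of such a probe set is no support for a difference. Of them 6 and 8 are among the calls and stay in the counts below, and no p-value is printed for those named. At its edge, IRC7 was just inside with signals of 13.8, 7.80 and 12.3 on ethanol and 5.80, 7.90 and 12 on maltose, and UTP20 just outside with 9.70, 6.00 and 12.7 against 12, 2.70 and 12.6.

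The study grew the wild-type MATa laboratory strain CEN.PK113-7D in chemostats, in which fresh medium is fed at a constant rate and the growth rate is fixed by the feed. Glucose, maltose, ethanol or acetate was the only nutrient in short supply, with 3 numbered cultures for each source and 1 Affymetrix Yeast Genome S98 array for each culture. Every culture was aerated at 30 °C and pH 5 and diluted at 0.1 per hour, so the ethanol and maltose cultures share strain, growth rate and medium apart from the carbon source. Cells were quenched in liquid nitrogen. The labels do not say how the 3 cultures of a source were started, and p-values measure the spread between these cultures of 1 strain.

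Yeast oxidises ethanol through acetaldehyde and acetate to acetyl-CoA, and then has to build every sugar phosphate from it. The glyoxylate cycle joins acetyl-CoA units into dicarboxylic acids while bypassing the carbon-losing steps of the tricarboxylic acid (TCA) cycle, and phosphoenolpyruvate carboxykinase and fructose-1,6-bisphosphatase carry the carbon on towards glucose 6-phosphate. Maltose is taken up with protons by a permease, cut into glucose by maltase and sent through glycolysis, and the genes for both proteins lie side by side in MAL loci.

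The 6 arrays were not alike in quality. Median signals were 44.7 to 48.1 on the ethanol arrays, 41.7 and 47.7 on maltose arrays 1 and 3, and 22.8 on maltose array 2, which is therefore named apart where signals are listed. It was the lowest maltose array for 66.5% of the 6796 probe sets and the highest for 17.0%. Actin control probe sets at both transcript ends gave a 3'/5' ratio, which grows when RNA is degraded or labelling stops short. It stood at 3.31, 9.27 and 14.0 for the ethanol cultures and at 2.95, 2.96 (array 2) and 1.82 for the maltose cultures. The same ratio for a further control gene, YER148W, was 3.64, 8.08 and 10.1 on ethanol. On maltose it was 2.39, 5.88 (array 2) and 3.80, so by this control array 2 stood above ethanol array 1. The acetate arrays, used for comparison at the end, had actin ratios of 2.78, 10.2 and 13.1, and the glucose arrays 1.84, 2.60 and 1.96. Their YER148W ratios were 4.87, 7.33 and 9.88 on acetate and 2.35, 3.01 and 2.77 on glucose. Counts with a 3'/5' covariate, and counts or medians with ethanol array 1 alone, stand beside the main gene groups. That covariate was the mean of the log2 actin and log2 YER148W ratios of each array. The code letter in the array descriptions was P on the ethanol arrays and maltose array 3 and M on maltose arrays 1 and 2. It was P on the acetate arrays and on glucose arrays 1 and 3, and V on glucose array 2. The labels do not say whether arrays of different sources were processed together. Arrays have no read depth, and their number limits the precision.

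Marker genes of the comparison are given first. They were chosen with earlier results of these data known, so they do not test the culture labels. PCK1 was also high on acetate (values at the end) and does not set ethanol apart from it. PCK1, the gene of phosphoenolpyruvate carboxykinase, gave signals of 2928, 4017 and 3851 on the ethanol arrays, 194 and 206 on maltose arrays 1 and 3, and 118 on maltose array 2. MAL11, a maltose permease gene of the MAL1 locus, gave 112, 100.5 and 76.1 on ethanol, 3335 and 2583 on maltose arrays 1 and 3, and 4455 on array 2. For both genes the lowest array of one source lay more than 10-fold above the highest array of the other. PCK1 was 21.3-fold higher on ethanol (log2 4.41 ± 0.23, SE, limma adjusted p = 1.44e-09) and MAL11 35.6-fold lower (log2 -5.15 ± 0.24, adjusted p = 8.47e-10). The other markers, YAT1, REG2 and MEP2, were also called higher on ethanol, and MEP2 lost its call under several alternatives, given with its values.

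At an adjusted p under 0.05, 473 probe sets were called, 6.96% of the 6796 tested. Of these, 325 were higher on ethanol (4.78%) and 148 lower (2.18%), and 338 differed at least 2-fold (4.97%). Groups did not overlap at 466 of the 473 calls, against 1713 of all probe sets (25.2%). With 1 probe set per gene, 348 of 5206 genes were called (6.68%), 232 higher (4.46%) and 116 lower (2.23%), and 238 differed at least 2-fold (4.57%). The call counts of gene lists below are to be set against these shares of all genes. The largest changes leaned the other way from the totals: past 4-fold, 21 called probe sets were higher and 31 lower on ethanol. The split depends on how arrays are scaled, because the median log2 change of all probe sets was 0.22 with equal trimmed means, 0.03 after quantile normalization and -0.16 after centring each array on its median. Calls were then 262 higher and 212 lower after quantile normalization, and 100 higher and 235 lower after median centring.

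**Figure D1:**
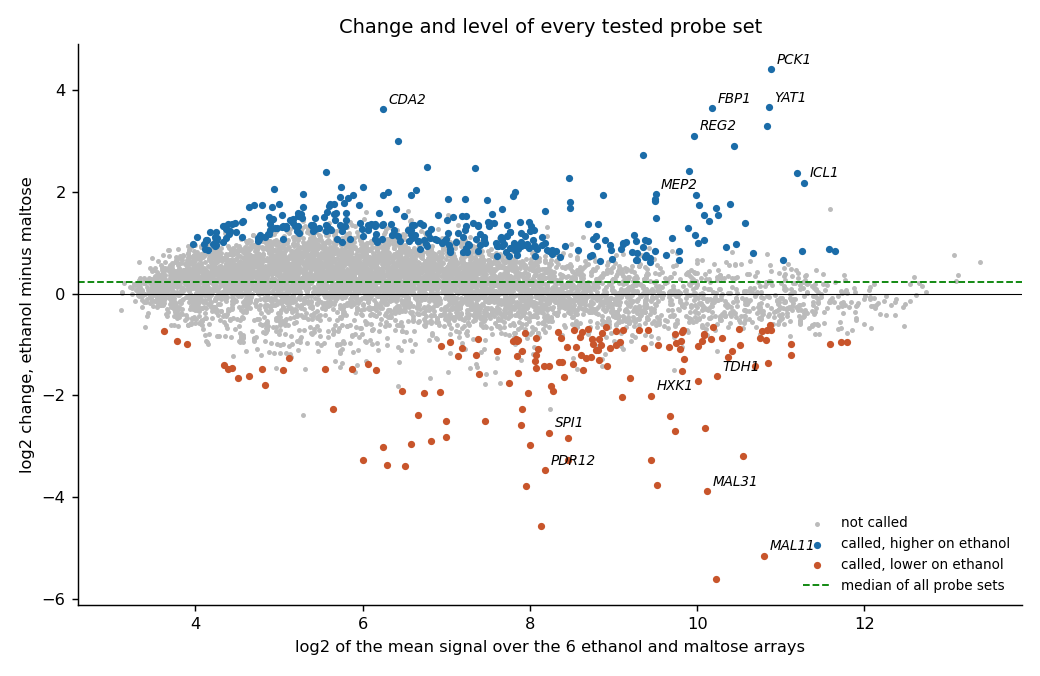
Each point is 1 of the 6796 probe sets, with the log2 change of ethanol minus maltose on the vertical axis and the log2 mean signal of the 6 arrays on the horizontal axis; blue points were called higher and orange points lower on ethanol. The dashed line is the median of all probe sets, 0.22, and the labelled genes lie far from it, PCK1 at log2 4.41 and MAL11 at log2 -5.15.

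Which arrays were used moved these counts. Without maltose array 2 the calls numbered 317, 194 higher and 123 lower, and the median change of all probe sets went from 0.22 to 0.06. Of the 473 calls, 250 were called again, 167 of those higher and 83 of those lower on ethanol. Leaving out ethanol array 2 gave 177 calls, ethanol array 3 gave 194, and maltose array 3 gave 1073. Ethanol array 1 as the only ethanol array gave 75 calls, 72 of them among the 473, and the 3'/5' ratio as a covariate gave 169, of which 146 were among the 473. In 19 of the 20 alternatives fitted to the same probe sets all 473 calls kept their sign, and with a floor of 50 it was 427, the other 46 having no change left because both groups lay at the floor. In every one of the 20, 30 were called, 17 higher and 13 lower on ethanol, 2 of which (CDA2 and IMA5) had passed the filter through 1 source alone.

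**Figure D2:**
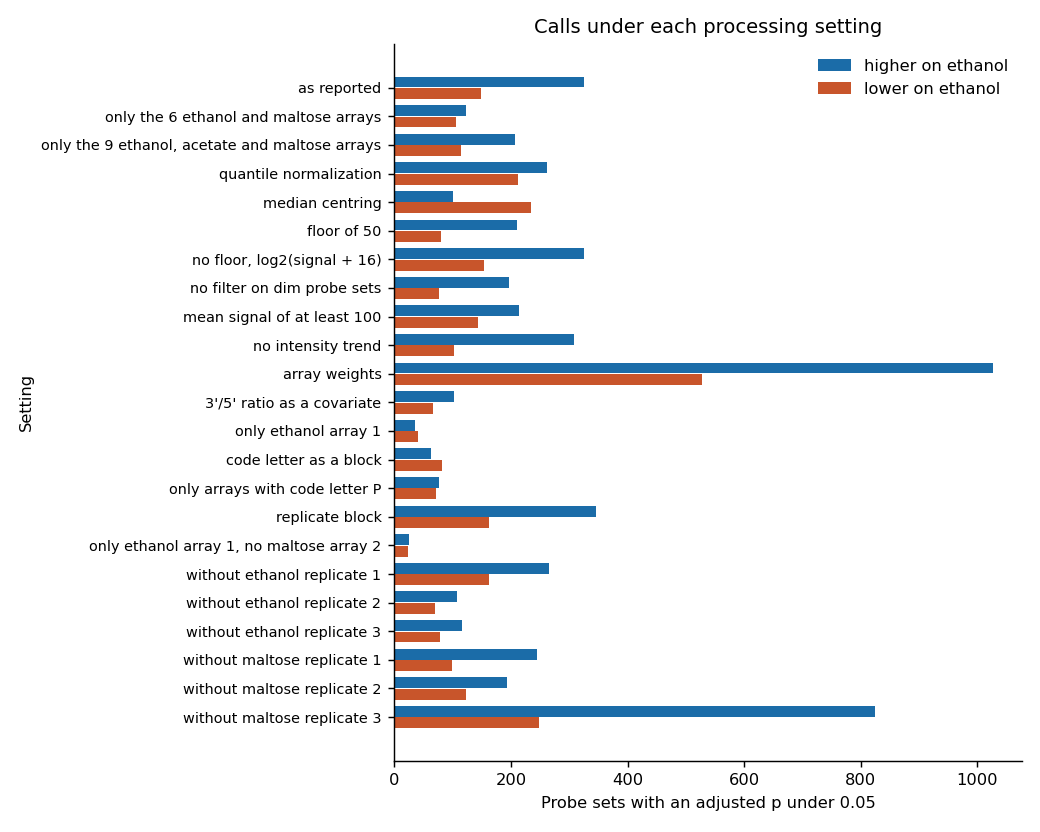
Bars give the number of probe sets with an adjusted p under 0.05, higher (blue) or lower (orange) on ethanol, for the reported fit and each alternative. The reported fit has 325 higher and 148 lower, and the counts run from 48 calls with ethanol array 1 alone and no maltose array 2 to 1554 with array weights.

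Genes of gluconeogenesis and the glyoxylate cycle stood highest on ethanol. Of 11 tested, 8 were called higher and 0 lower, and the list's median log2 change was 2.19 against 0.23 over all genes. FBP1, the gene of fructose-1,6-bisphosphatase, read 2045, 2695 and 1708 on ethanol, 214 and 191 on maltose arrays 1 and 3 and 119 on array 2, a 12.5-fold difference (log2 3.64 ± 0.23, adjusted p = 1.88e-08). MLS1, the malate synthase gene, read 3148, 4421 and 2428 on ethanol, 350.0 and 376 on maltose arrays 1 and 3 and 272 on array 2 (9.80-fold, log2 3.29 ± 0.25, adjusted p = 3.00e-07). The ethanol and maltose arrays did not overlap for either gene. ICL1, whose product isocitrate lyase feeds malate synthase, was already at 893 and 753 on maltose arrays 1 and 3 and 1015 on array 2, and reached 3718, 5134 and 3377 on ethanol (4.55-fold, log2 2.19 ± 0.20, adjusted p = 1.69e-06).

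MDH2, encoding the cytosolic malate dehydrogenase, read 3877, 4664 and 3212 on ethanol against 719 and 730 on maltose arrays 1 and 3 and 805 on array 2 (5.16-fold, log2 2.37 ± 0.19, adjusted p = 4.80e-07). CIT2, encoding the peroxisomal citrate synthase, read 2254, 2862 and 2146 on ethanol, 481 and 393 on maltose arrays 1 and 3 and 176 on array 2. Its difference was 7.46-fold with all arrays (log2 2.90 ± 0.33, adjusted p = 2.26e-05) and log2 2.47 without maltose array 2 (adjusted p = 0.00046). SFC1, encoding the mitochondrial succinate-fumarate carrier, was 2.80-fold higher (log2 1.49 ± 0.19, adjusted p = 0.000129), with 461 and 404 on maltose arrays 1 and 3 and 299 on array 2. PYC1, a pyruvate carboxylase gene, was 2.23-fold higher (log2 1.16 ± 0.27, adjusted p = 0.0166), with maltose array 3 at 535 against 282 on array 1 and 328 on array 2, and its adjusted p was 0.0716 without maltose array 2. ACO1, the aconitase gene shared with the TCA cycle, read 1755, 1542 and 1486 on ethanol and 1311, 1268 and, on maltose array 2, 1199 (log2 0.34 ± 0.16, adjusted p = 0.203). In this list 7 genes were called without maltose array 2, 7 with ethanol array 1 alone and 7 with the 3'/5' covariate.

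**Figure D3:**
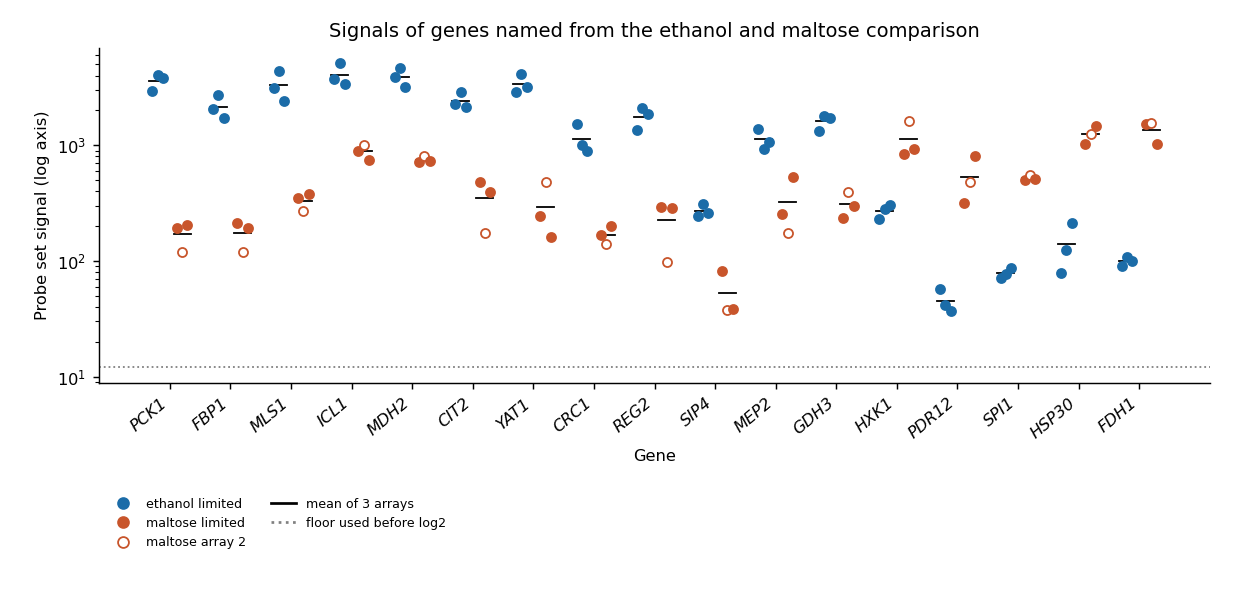
Probe set signals on a log axis for 17 genes, with blue points for the 3 ethanol arrays, orange points for maltose arrays 1 and 3, an open circle for maltose array 2 and a bar for the mean of 3 arrays. Ethanol points lie above every maltose point from PCK1 to GDH3 and below every maltose point from HXK1 to FDH1, and the open circle is not on 1 side of the other maltose arrays.

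Acetyl groups can cross between compartments bound to carnitine, and transcripts of the genes for that shuttle were higher on ethanol. Whether the shuttle was in use in these cultures was not measured. In the list of carnitine shuttle and carboxylate transport, 10 of 16 genes were called higher and 2 lower (median log2 1.00). YAT1, the outer mitochondrial carnitine acetyltransferase gene, read 2892, 4157 and 3167 on ethanol, 243 and 160.0 on maltose arrays 1 and 3 and 479 on array 2. Maltose array 2 was the highest maltose array here, and the 12.7-fold difference (log2 3.67 ± 0.31, adjusted p = 9.14e-07) became log2 4.09 without it. CRC1, the gene of the mitochondrial carnitine carrier, read 1524, 999 and 892 on ethanol against 168 and 199 on maltose arrays 1 and 3 and 139 on array 2 (6.63-fold, log2 2.73 ± 0.22, adjusted p = 4.80e-07). CAT2, for the peroxisomal and mitochondrial acetyltransferase, was 3.34-fold higher (log2 1.74 ± 0.24), and YAT2, for a cytosolic one, 3.22-fold higher (log2 1.69 ± 0.21). Maltose array 2 was between the other maltose arrays for CAT2, at 471, and above them for YAT2, at 659.

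Among the carboxylate transporters the direction was mixed. ADY2, an acetate permease gene, read 2069, 2551 and 1971 on ethanol and 855, 794 and, on maltose array 2, 853 (2.62-fold, log2 1.39 ± 0.18, adjusted p = 0.00014). JEN1, the permease gene for lactate and pyruvate, went the other way, with 1552, 1378 and 1213 on ethanol, 2441 and 1925 on maltose arrays 1 and 3 and 2482 on array 2 (1.65-fold lower on ethanol, log2 -0.72 ± 0.18, adjusted p = 0.0248). DIC1, the mitochondrial dicarboxylate carrier gene, named after its values were seen, was 1.76-fold lower on ethanol (log2 -0.81 ± 0.21, adjusted p = 0.028). Neither JEN1 nor DIC1 was called without maltose array 2 (adjusted p = 0.0616 and 0.082). Without maltose array 2 the list held 7 higher calls, with ethanol array 1 alone 5, with the covariate 8, and 0 lower calls in each.

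Genes for the steps from ethanol to acetyl-CoA were called higher or not at all. ADH2, whose product is the ethanol-oxidising alcohol dehydrogenase, was among the brightest probe sets on both sources, with 5669, 8226 and 6722 on ethanol, 7543 and 4147 on maltose arrays 1 and 3 and 7196 on array 2. The groups overlapped and the test did not pass (log2 0.16 ± 0.28, adjusted p = 0.747), and ADH1 and ADH2 are close enough in sequence for cross-hybridisation. ADH3, for the mitochondrial isoenzyme, was 1.70-fold higher on ethanol (log2 0.77 ± 0.22, adjusted p = 0.0472), and was not called without maltose array 2 (adjusted p = 0.105) or with ethanol array 1 alone (adjusted p = 0.413). ACS1, for an acetyl-CoA synthetase, read 3662, 4751 and 3948 on ethanol against 2144 and 2105 on maltose arrays 1 and 3 and 2687 on array 2 (1.78-fold, log2 0.83 ± 0.20, adjusted p = 0.0183). It was called without maltose array 2 (adjusted p = 0.0158). With the covariate (adjusted p = 0.151), without ethanol array 2 (adjusted p = 0.0991) and after median centring (adjusted p = 0.520) it was not. ACH1, for a mitochondrial enzyme that transfers CoA to acetate, read 2105, 2592 and 1543 against 441, 757 and, on array 2, 647 (3.39-fold, log2 1.76 ± 0.23, adjusted p = 0.000133). In the list of ethanol and acetate metabolism 4 of 18 genes were called higher, beside 4.46% of all genes, and 0 lower, with a median log2 change of 0.21. With ethanol array 1 alone and with the covariate 2 were called higher, and without maltose array 2 there were 4 higher and 1 lower.

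The TCA cycle list held 6 higher calls and 0 lower among 18 genes (median log2 0.49). SDH1, for the flavoprotein of succinate dehydrogenase, read 1226, 1350 and 1582 on ethanol, 523 and 671 on maltose arrays 1 and 3 and 685 on array 2 (2.22-fold, log2 1.15 ± 0.19, adjusted p = 0.00141). CIT3, for a mitochondrial citrate and methylcitrate synthase, was 2.20-fold higher (log2 1.14 ± 0.21), IDP1, for the mitochondrial NADP isocitrate dehydrogenase, 1.98-fold higher (log2 0.99 ± 0.22), and IDH1, for a subunit of the NAD enzyme, 1.78-fold higher (log2 0.84 ± 0.17). Maltose array 2 was between arrays 1 and 3 for these 3 genes, at 243, 198 and 492. CIT1, for the main mitochondrial citrate synthase, read 2633, 3121 and 2626 on ethanol and 2529, 1740 and, on array 2, 2415 (log2 0.34 ± 0.20, adjusted p = 0.294), and MDH1, for the mitochondrial malate dehydrogenase, overlapped between sources (log2 -0.24 ± 0.19, adjusted p = 0.446). With ethanol array 1 alone and with median centring, 0 TCA cycle genes were called, against 5 without maltose array 2 and 3 each with the covariate and without ethanol array 2.

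Among 38 genes for respiratory complexes and the ATP synthase, 3 were called higher and 1 lower (median log2 0.19, below the 0.23 of all genes). Over all genes 4.46% were called higher and 2.23% lower. NDE2, for an NADH dehydrogenase on the outer face of the inner mitochondrial membrane, read 912, 1318 and 1171 on ethanol against 294.5 and 286 on maltose arrays 1 and 3 and 344 on array 2 (3.65-fold, log2 1.87 ± 0.22, adjusted p = 3.72e-05). COX9, for a small subunit of cytochrome c oxidase, was 2.07-fold higher (log2 1.05 ± 0.17, adjusted p = 0.000945), and QCR8, for a subunit of the cytochrome bc1 complex, 2.47-fold (log2 1.30 ± 0.35, adjusted p = 0.0324). Maltose array 2 was the lowest maltose array for both, at 664 and 13.5, and QCR8 was not called without it (adjusted p = 0.0615). CYC7, for the minor cytochrome c isoform, was at 15.5, 16.0 and 18.8 on ethanol against 99.1 and 96.9 on maltose arrays 1 and 3 and 53.5 on array 2 (4.79-fold lower, log2 -2.26 ± 0.33, adjusted p = 0.00035). With ethanol array 1 alone 1 gene of the list was called higher and 1 lower, and with the covariate 2 and 1. The beta-oxidation list had 0 calls among 15 genes, with CTA1, the peroxisomal catalase gene, at log2 0.58 ± 0.18 (adjusted p = 0.0631). PEX21, a peroxisomal import gene, was the 1 call among 23 peroxisome biogenesis genes (log2 0.74 ± 0.21, adjusted p = 0.0433), beside 4.46% of all genes called higher. The median of that list was log2 0.60 with all arrays and 0.29 without maltose array 2.

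Several genes that handle sugars after uptake were lower on ethanol. HXK1, for hexokinase 1, read 230.3, 281 and 302 on ethanol, 836 and 936 on maltose arrays 1 and 3 and 1614 on array 2 (4.01-fold lower, log2 -2.00 ± 0.25, adjusted p = 6.92e-05). Its groups did not overlap, and the difference was log2 -1.72 without maltose array 2 (adjusted p = 0.00101). The other sugar kinases did not pass: HXK2 read 926, 465 and 459 on ethanol and 549, 774 and, on array 2, 822 (log2 -0.27 ± 0.26, adjusted p = 0.521). GLK1, the glucokinase gene, read 958, 890 and 843 on ethanol and 1243, 1595 and, on array 2, 1610 (log2 -0.72 ± 0.23, adjusted p = 0.0703). TDH1, for a glyceraldehyde-3-phosphate dehydrogenase isoenzyme, was 3.09-fold lower (log2 -1.63 ± 0.24, adjusted p = 0.00035), ENO1, an enolase gene, 1.93-fold (log2 -0.95 ± 0.21), and PGI1, for phosphoglucose isomerase, 1.66-fold (log2 -0.73 ± 0.20). These 4 were the calls among 19 glycolysis genes, whose median was log2 -0.39, and PGI1 was not called without maltose array 2 (adjusted p = 0.103). That array was at 1832 for TDH1, between the other maltose arrays, and above them at 5776 for ENO1 and 2770 for PGI1. Ethanol array 1 alone gave 2 lower calls in the list, and the covariate 3. TDH and ENO genes have near-identical copies and are open to cross-hybridisation.

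In the pentose phosphate pathway 1 of 13 genes was called higher and 3 lower. GND1 and GND2, for the 6-phosphogluconate dehydrogenases of its oxidative branch, were 1.89-fold (log2 -0.92 ± 0.17, adjusted p = 0.00337) and 2.51-fold lower on ethanol (log2 -1.32 ± 0.29, adjusted p = 0.0117). SOL3, for the 6-phosphogluconolactonase between them and glucose 6-phosphate, was 2.02-fold lower (log2 -1.01 ± 0.20, adjusted p = 0.00601). Maltose array 2 was the highest maltose array for all 3 genes, at 1546, 455 and 666, and GND2 was not called without it (adjusted p = 0.0575). RKI1, for ribose-5-phosphate isomerase of the non-oxidative branch, was higher, with 343, 257 and 234 on ethanol, 74.7 and 106 on maltose arrays 1 and 3 and 56.4 on array 2 (3.58-fold, log2 1.84 ± 0.26, adjusted p = 0.000236). The list's median was log2 -0.53. With ethanol array 1 alone 1 gene was called higher and 0 lower, with the covariate 1 and 1, and without maltose array 2 the calls were 3 higher and 2 lower.

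Among 11 hexose transporter and sensor genes 1 was called higher and 2 lower, and 0 were called with ethanol array 1 alone. HXT2, for a high-affinity glucose transporter, read 892, 616 and 551 on ethanol and 1290, 1195 and, on array 2, 1638 (2.03-fold lower, log2 -1.02 ± 0.22, adjusted p = 0.0118), and was not called without maltose array 2 (adjusted p = 0.0594). STL1, a glycerol proton symporter gene of the same protein family, was higher, with 254, 193 and 233 on ethanol, 95.0 and 96.2 on maltose arrays 1 and 3 and 26.2 on array 2. Its 3.63-fold difference (log2 1.86 ± 0.41, adjusted p = 0.0125) became log2 1.24 without array 2 (adjusted p = 0.0344). HXT8, for another member of the transporter family, was below the floor on every ethanol array and at 30.0, 36.9 and, on array 2, 28.9 on maltose, at least 2.65-fold lower. It passed the filter through the maltose arrays alone and so had to differ, and at a floor of 50 it had no change left. HXT7, open to cross-hybridisation with HXT6, and HXT5 did not pass (log2 -0.56 ± 0.20, adjusted p = 0.0896, and log2 0.56 ± 0.22, adjusted p = 0.117).

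The probe sets furthest below maltose on ethanol were the maltase pair and MAL11. The probe set shared by the maltase genes MAL12 and MAL32 read 43.1, 45.3 and 47.8 on ethanol, 2559 and 1385 on maltose arrays 1 and 3 and 3109 on array 2 (49.1-fold lower, log2 -5.62 ± 0.34, adjusted p = 1.56e-08). MAL31, the maltose permease gene of the MAL3 locus, read 194, 121 and 113 on ethanol and 2123, 1566 and, on array 2, 2568 (14.8-fold, log2 -3.88 ± 0.25, adjusted p = 1.88e-08). Maltose array 2 was the highest array for both, so its low median did not go with low signals here. Isomaltase genes, whose products cut other glucosides, followed at lower levels. IMA1 read 9.70, 13.8 and 22.4 on ethanol, 208 and 169 on maltose arrays 1 and 3 and 122 on array 2 (10.5-fold, log2 -3.40 ± 0.34, adjusted p = 5.79e-06), and IMA5 lay below the floor of 12 on every ethanol array and at 159 and 146 on maltose arrays 1 and 3 and 66.5 on array 2, at least 9.65-fold lower. IMA5 passed the filter through the maltose arrays alone and so had to differ.

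Of 12 listed maltose utilisation genes, 7 were tested and 4 called (IMA5 among them), all lower on ethanol. The lower calls were also 4 without maltose array 2 and with the covariate. The list's median, log2 -3.27 with all arrays and with ethanol array 1 alone, is the value of IMA5, a bound set by the floor. With a floor of 50 the median was log2 -1.21. The activator genes MAL13 and MAL33 were at log2 -0.03 and -0.42 and the permease gene MPH2 at log2 0.55, and none of the 3 was called. MAL12, MAL32, IMA2 and MPH3 had no probe set of their own, ZNF1 was too dim to test, and near-identical copies of the MAL and IMA genes are open to cross-hybridisation. The probe set of the IMA family read 67.1, 77.0 and 54.0 on ethanol and 703, 618 and, on array 2, 580 (9.67-fold, adjusted p = 9.14e-07). YHR210C, which encodes a protein of the aldose epimerase family, read 28.0, 30.9 and 32.5 on ethanol and 267, 136 and, on array 2, 112 (5.25-fold lower, log2 -2.39 ± 0.34, adjusted p = 0.000249).

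Regulators of carbon use differed in both directions, 4 of 30 higher and 2 lower, with 2 higher and 0 lower for ethanol array 1 alone. REG2, for a regulatory subunit of the Glc7 phosphatase that opposes the Snf1 kinase, read 1356, 2082 and 1879 on ethanol, 290.0 and 288 on maltose arrays 1 and 3 and 98.8 on array 2. Array 2 was nearly 3-fold below the other maltose arrays, and the 8.63-fold difference (log2 3.11 ± 0.33, adjusted p = 1.23e-05) was log2 2.59 without it (adjusted p = 4.88e-05). SIP4, for an activator of gluconeogenic genes, read 245, 313 and 258 on ethanol and 81.2, 38.3 and, on array 2, 37.8 (5.52-fold, log2 2.46 ± 0.31, adjusted p = 9.50e-05). ERT1, a further regulator gene of the list, was dim, with 23.5, 21.8 and 28.9 on ethanol and 13.2, 13.2 and, on array 2, 11.8. It was 1.92-fold higher (log2 0.94 ± 0.25, adjusted p = 0.0296) and had no change left at a floor of 50. YGR067C, for a zinc finger protein outside the list, was 3.84-fold higher (log2 1.94 ± 0.21, adjusted p = 2.01e-05).

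CAT8 and ADR1, for other activators of genes used on non-fermentable carbon, did not pass. CAT8 read 59.1, 62.4 and 41.2 on ethanol and 47.8, 21.2 and, on array 2, 11.7 (log2 1.21 ± 0.42, adjusted p = 0.0834), and ADR1 read 120.4, 68.5 and 50.2 against 32.9, 49.1 and, on array 2, 16.9 (log2 1.31 ± 0.40, adjusted p = 0.0561). Their log2 differences without maltose array 2 were 0.75 and 0.89. The repressor gene NRG2 was 2.46-fold lower on ethanol (log2 -1.30 ± 0.24, adjusted p = 0.00374), with 608 and 546 on maltose arrays 1 and 3 and 795 on array 2. MIG2, for a repressor that acts when glucose is abundant, was below the floor on every ethanol array and at 25.4 and 37.1 on maltose arrays 1 and 3 and 39.7 on array 2, at least 2.79-fold lower. Like HXT8 it passed the filter through the maltose arrays alone, and it had no change left at a floor of 50. SNF1, the kinase gene, was 1.77-fold higher (log2 0.82 ± 0.24, adjusted p = 0.0484) and was not called without maltose array 2 (adjusted p = 0.0786).

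**Figure D4:**
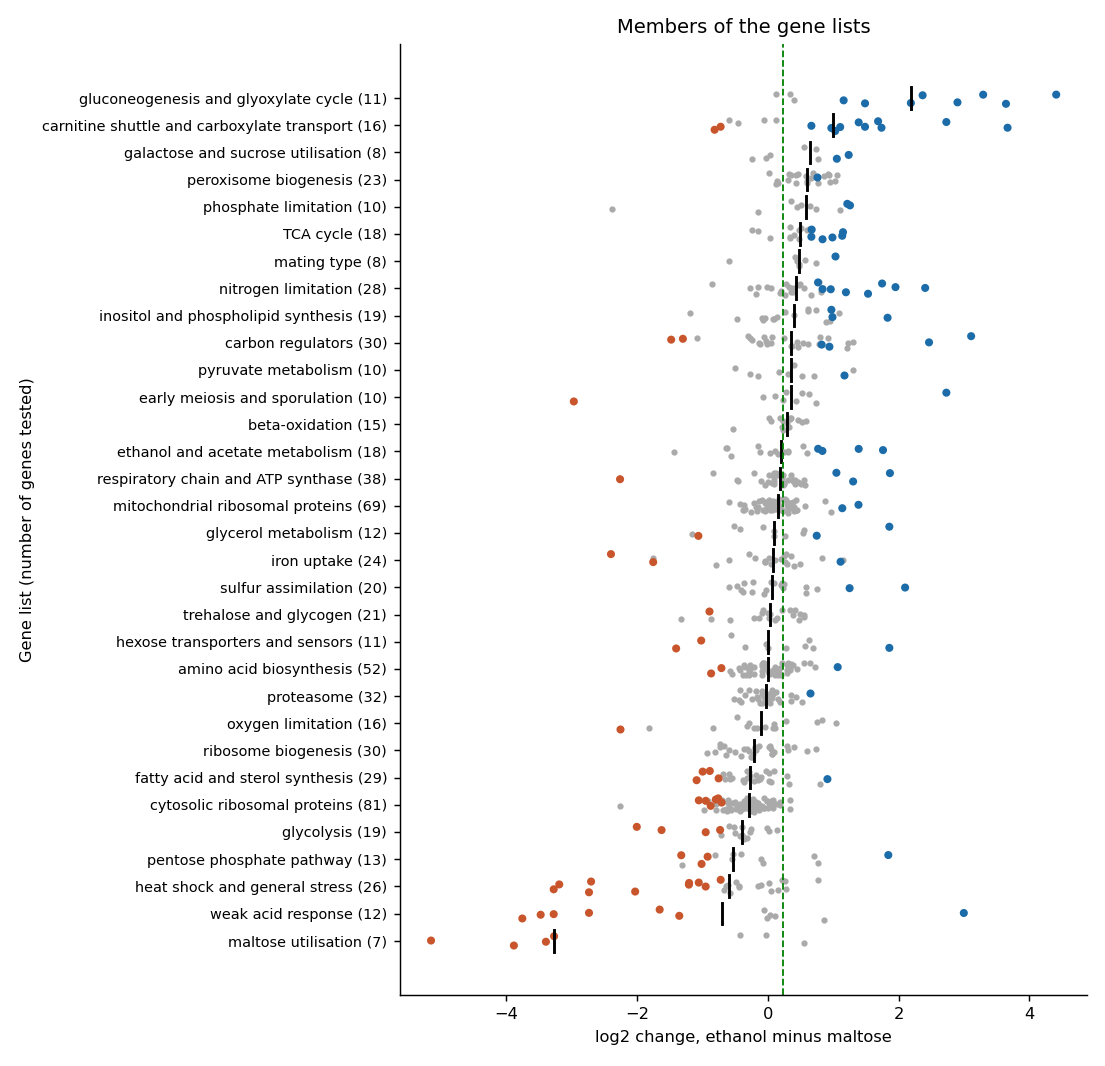
Each point is a tested gene at its log2 change of ethanol minus maltose, by list, with blue points called higher, orange points called lower and grey points not called. Black bars are list medians and the dashed line the median over all genes, 0.23. Gluconeogenesis and glyoxylate cycle lie highest at 2.19 and maltose utilisation lowest at -3.27, the value of IMA5, which is a bound.

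In the nitrogen limitation list 8 of 28 genes were called higher on ethanol and 0 lower (median log2 0.43). The call count depended on the arrays: it was 1 with ethanol array 1 alone, and 3 higher and 1 lower after median centring. GDH3, for a glutamate dehydrogenase that uses NADPH, read 1317, 1802 and 1718 on ethanol, 234 and 300 on maltose arrays 1 and 3 and 391 on array 2 (5.30-fold, log2 2.41 ± 0.22, adjusted p = 1.58e-06). MEP2, for the high-affinity ammonium permease, read 1381, 934 and 1072 on ethanol against 255 and 536 on maltose arrays 1 and 3 and 175 on array 2. The 3 MEP2 maltose signals spread 3-fold, and its 3.87-fold difference (log2 1.95 ± 0.42, adjusted p = 0.00969) was not called without maltose array 2 (log2 1.59, adjusted p = 0.0716) or with ethanol array 1 alone (log2 2.26, adjusted p = 0.128).

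DAL2, for allantoicase, which breaks down the purine product allantoin, read 109, 88.3 and 89.4 on ethanol and 25.2, 30.9 and, on array 2, 29.2 (3.36-fold, log2 1.75 ± 0.31, adjusted p = 0.00221). DUR3, a urea permease gene, was 2.89-fold higher (log2 1.53 ± 0.39, adjusted p = 0.0272), with maltose array 3 at 151 against 41.9 on array 1 and 63.6 on array 2, and was not called without array 2 (adjusted p = 0.0905) or with ethanol array 1 alone (adjusted p = 0.298). In this list 6 genes were called higher and 1 lower without maltose array 2, 6 higher with the covariate and 4 higher without ethanol array 2. Among lists of other nutrients, beside 4.46% of all genes called higher, the sulfur list had 2 higher calls of 20 genes. These were MET8, a siroheme synthesis gene, at log2 2.10 ± 0.40 and the methionine permease gene MUP1 at log2 1.25 ± 0.33. The phosphate list had 2 higher calls of 10, PHO81, an inhibitor gene of the phosphate-sensing kinase, at log2 1.22 ± 0.24 and the polyphosphate synthase gene VTC4 at log2 1.26 ± 0.27, but a second VTC4 probe set was at log2 -0.43 ± 0.29 (adjusted p = 0.358). MUP1 and VTC4 were not called without maltose array 2 (adjusted p = 0.114 and 0.0568), and neither list had a call with ethanol array 1 alone.

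In the heat shock and general stress list 10 of 26 genes were called lower and 0 higher (median log2 -0.59). HSP30, for a plasma membrane protein that restrains the proton pump, read 79.1, 124 and 213 on ethanol, 1018 and 1478 on maltose arrays 1 and 3 and 1263 on array 2 (9.69-fold lower, log2 -3.28 ± 0.52, adjusted p = 0.000841). SPI1, for a cell wall protein, read 71.8, 77.0 and 86.5 on ethanol and 502, 507 and, on array 2, 556 (6.66-fold lower, log2 -2.74 ± 0.24, adjusted p = 1.03e-06). For both genes every maltose array lay above every ethanol array. SIP18, for a protein made under water stress, was 6.52-fold lower (log2 -2.70 ± 0.26, adjusted p = 2.91e-06), and GRE1, for another hydrophilic stress protein, 9.13-fold lower (log2 -3.19 ± 0.54, adjusted p = 0.00162), with maltose array 2 at 1550 and 3321. SSA3 and SSA4, for stress-induced Hsp70 chaperones, were at log2 -2.03 and -1.21, and HSP26, HSP42, HSP78 and SSE2, for other chaperones, at log2 -1.21, -0.95, -0.72 and -1.06. Lower calls in this list numbered 7 each without maltose array 2, with the covariate, without ethanol array 2 and without ethanol array 3. With the code letter as a block they numbered 3. The list's median was log2 -0.82 with ethanol array 1 alone and -0.42 with that block. Only maltose array 3 shares the letter of the ethanol arrays. PIR3, for a cell wall protein outside this list, was 7.05-fold lower (log2 -2.82 ± 0.37, adjusted p = 0.000129), with maltose array 2 at 184.

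In the weak acid response list 6 of 12 tested genes were called lower and 1 higher (median log2 -0.70), and 2 of the 6, HSP30 and SPI1, are also in the stress list. With ethanol array 1 alone 5 were lower and 0 higher, and with the covariate 5 and 1. PDR12, for the plasma membrane pump that exports organic acid anions, read 57.4, 41.8 and 37.2 on ethanol, 314 and 814 on maltose arrays 1 and 3 and 480 on array 2 (11.1-fold lower, log2 -3.48 ± 0.35, adjusted p = 6.69e-06). FDH1, for formate dehydrogenase, had 2 probe sets, both open to its near-identical copy FDH2. The brighter read 91.3, 108 and 100.1 on ethanol and 1523, 1022 and, on array 2, 1559 (13.5-fold lower, log2 -3.76 ± 0.44, adjusted p = 3.57e-05), and the dimmer was 23.7-fold lower (log2 -4.57 ± 0.55, adjusted p = 5.51e-05). YGP1, for a secreted cell wall glycoprotein, and YRO2, for a plasma membrane protein, were at log2 -1.36 and -1.66. TPO2, for a polyamine exporter, was the call in the other direction, with 113, 171 and 171 on ethanol and 30.9, 17.4 and, on array 2, 12 (7.99-fold higher, log2 3.00 ± 0.38, adjusted p = 0.000103). YJR115W, an uncharacterised gene, read 5.90, 71.1 and 40.2 on ethanol and 533, 327 and, on array 2, 511 (13.7-fold lower, adjusted p = 0.00013). Its ethanol signals spread widely and lay below every maltose signal.

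Some lipid synthesis genes were called. INO1, for the enzyme that makes inositol phosphate from glucose 6-phosphate, read 932, 1326 and 1132 on ethanol, 329 and 372 on maltose arrays 1 and 3 and 254 on array 2 (3.56-fold higher, log2 1.83 ± 0.21, adjusted p = 2.26e-05). OPI3, for a methyltransferase of phosphatidylcholine synthesis, read 1213, 1627 and 1293 against 725, 631 and, on array 2, 715 (1.98-fold higher, log2 0.99 ± 0.20, adjusted p = 0.00601). With the choline permease gene HNM1 (log2 0.97 ± 0.28, adjusted p = 0.0428) these were the 3 higher calls among 19 inositol and phospholipid genes, with 0 lower. HNM1 was not called without maltose array 2 (adjusted p = 0.140), and 1 gene of the list was called with ethanol array 1 alone and 1 with the covariate. Of 29 fatty acid and sterol genes, 4 were called lower and 1 higher: ERG1, for squalene epoxidase, was 2.13-fold lower (log2 -1.09 ± 0.22), ERG3, for a sterol desaturase, 2.00-fold lower (log2 -1.00 ± 0.23) and ERG5, for another sterol desaturase, 1.85-fold lower (log2 -0.89 ± 0.20). FAS2, for a fatty acid synthase subunit, was 1.88-fold higher on its brightest probe set (log2 0.91 ± 0.26, adjusted p = 0.0415). None of its other 3 probe sets was called, and they differed in direction, at log2 0.25, -1.54 and -0.58. On maltose array 2 ERG1, ERG3 and ERG5 were at 1578, 4923 and 502, and ERG3 and FAS2 were not called without it (adjusted p = 0.0676 and 0.109). No gene of this list was called with ethanol array 1 alone or with the covariate.

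Of 81 cytosolic ribosomal protein genes tested, 6 were called lower and 0 higher (median log2 -0.28), beside 2.23% of all genes called lower. RPL13A read 675, 417 and 510 on ethanol and 1082, 1095 and, on array 2, 1088 (2.08-fold lower, log2 -1.06 ± 0.20, adjusted p = 0.00345). Only 1 of the 81 was called without maltose array 2 and 28 without maltose array 3. The median was log2 -0.31 with ethanol array 1 alone. With the code letter as a block 0 were called and the median turned to log2 0.09. The ribosome biogenesis list had 0 calls of 30, and NSR1, for a nucleolar protein, read 456, 194 and 133 on ethanol and 310.0, 392 and, on array 2, 520.4 (log2 -0.81 ± 0.34, adjusted p = 0.145). The median of that list was log2 -0.21 with all arrays and 0.33 with ethanol array 1 alone, so its direction turned with the array used. The lists that follow had few calls each, beside 4.46% of all genes called higher and 2.23% lower. Mitochondrial ribosomal proteins had 2 higher calls of 69 and 0 without maltose array 2, the proteasome list 1 of 32, and amino acid biosynthesis 1 higher and 2 lower of 52. Of the remaining lists, galactose and sucrose utilisation had 2 higher calls of 8 genes (1 of them GAL10, admitted by its ethanol signals alone), glycerol metabolism 2 higher and 1 lower of 12, iron uptake 1 higher and 2 lower of 24, early meiosis 1 higher (CRC1, the carnitine carrier gene above) and 1 lower (SPS100, a spore wall gene) of 10 and mating type 1 higher of 8. Trehalose and glycogen had 1 lower call of 21, oxygen limitation 1 lower of 16 and pyruvate metabolism 1 higher of 10.

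Single genes outside these groups were also far apart. CDA2, for a chitin deacetylase known from spore wall formation, read 163, 154 and 131 on ethanol and 1.2, 1.9 and, on array 2, 3.60 on maltose, at least 12.4-fold higher. This probe set passed the filter through the ethanol arrays alone and so had to differ. A second CDA2 probe set read 116, 99.9 and 170.0 on ethanol and 27.3, 127 and, on array 2, 29.6, and was not called (log2 1.42 ± 0.46, adjusted p = 0.0719). YDR222W, an uncharacterised gene, read 224, 162 and 166 on ethanol and 37.5, 39.2 and, on array 2, 22.8 (5.64-fold higher, log2 2.50 ± 0.31, adjusted p = 6.93e-05). BDH1, for butanediol dehydrogenase, was 2.41-fold lower (log2 -1.27 ± 0.18, adjusted p = 0.000354), with maltose array 2 at 551. TRM13, a tRNA methyltransferase gene, read 106.5, 80.4 and 54.2 on ethanol and 13.9, 19.3 and, on array 2, 8.5 (5.24-fold higher, log2 2.39 ± 0.33, adjusted p = 0.000228). FIT3 and FIT2, for cell wall proteins that retain siderophore iron, were 5.28-fold and 3.37-fold lower on ethanol, and maltose array 2 stood apart at 2905 for FIT3 against 667 and 691 on arrays 1 and 3 and at 703 for FIT2 against 201 and 146. Without it, FIT3 was at log2 -1.70 (adjusted p = 0.0298) and FIT2 was not called (log2 -1.07, adjusted p = 0.122).

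Gene length went with the change as well. With genes in 4 length classes of nearly equal size, from shortest to longest, the median log2 changes were 0.12, 0.17, 0.28 and 0.40, the shares called higher were 3.12%, 3.79%, 4.87% and 6.20%, and the shares called lower were 3.12%, 3.08%, 1.81% and 0.785%. Ethanol array 1 alone, with the lowest actin ratio of the ethanol arrays, gave medians of 0.09, 0.25, 0.36 and 0.47. Without maltose array 2 they were -0.03, -0.05, 0.07 and 0.17.

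The same cultures were also set against the other source of their kind. Maltose against glucose called 14 of the 6796 probe sets (0.206%, with 823 at an unadjusted p under 0.05) and ethanol against acetate called 2 (0.0294%, with 276 unadjusted). Per gene these were 10 (0.192%) and 1 (0.0192%) of 5206. These contrasts share the maltose or the ethanol arrays with ethanol against maltose, so their values are given side by side only. MAL11 was at 510.1, 401 and 572 on glucose and 96.3, 67.0 and 106 on acetate, so glucose lay between maltose and the other carbon sources (maltose over glucose log2 2.79, adjusted p = 7.49e-06). MAL31 and IMA1 were near the ethanol level on glucose, with means of 169 ± 25.1 (SD, n = 3) and 15.1 ± 3.61, and YHR210C was called higher on maltose than on glucose as well (log2 2.81). INO1 and OPI3 were lower on maltose than on glucose (log2 -1.10, adjusted p = 0.0292, and log2 -1.08, adjusted p = 0.0246). HXK1, PDR12 and SPI1 were at 1723, 638 and 327 on glucose and at 212, 43.0 and 64.3 on acetate (means of 3 arrays).

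PCK1, FBP1 and MLS1 had means of 3474, 1766 and 3041 on acetate and 202, 214 and 381 on glucose, beside 3599, 2150 and 3332 on ethanol and 173, 174 and 333 on maltose. The actin ratio ran from 2.78 to 13.1 on acetate and from 3.31 to 14.0 on ethanol, against 1.84 to 2.60 on glucose and 1.82 to 2.96 on maltose, and its part in these values was not tested. The 2 calls between ethanol and acetate were CDA2, with a mean of 36.6 on acetate (log2 2.03), admitted by its ethanol signals, and SIT1, a siderophore transporter gene, with a mean of 517 on acetate against 88.4 on ethanol (log2 -2.52, adjusted p = 0.00265). SIT1 did not differ by the test between ethanol and maltose (log2 -0.30 ± 0.33, adjusted p = 0.598). SUC2, the invertase gene, and HXT4, a glucose transporter gene, were called lower on maltose than on glucose (log2 -1.85 and -1.64 on 2 SUC2 probe sets, and log2 -1.98) and were not called between ethanol and maltose (log2 0.41, -0.24 and -0.00).

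**Figure D5:**
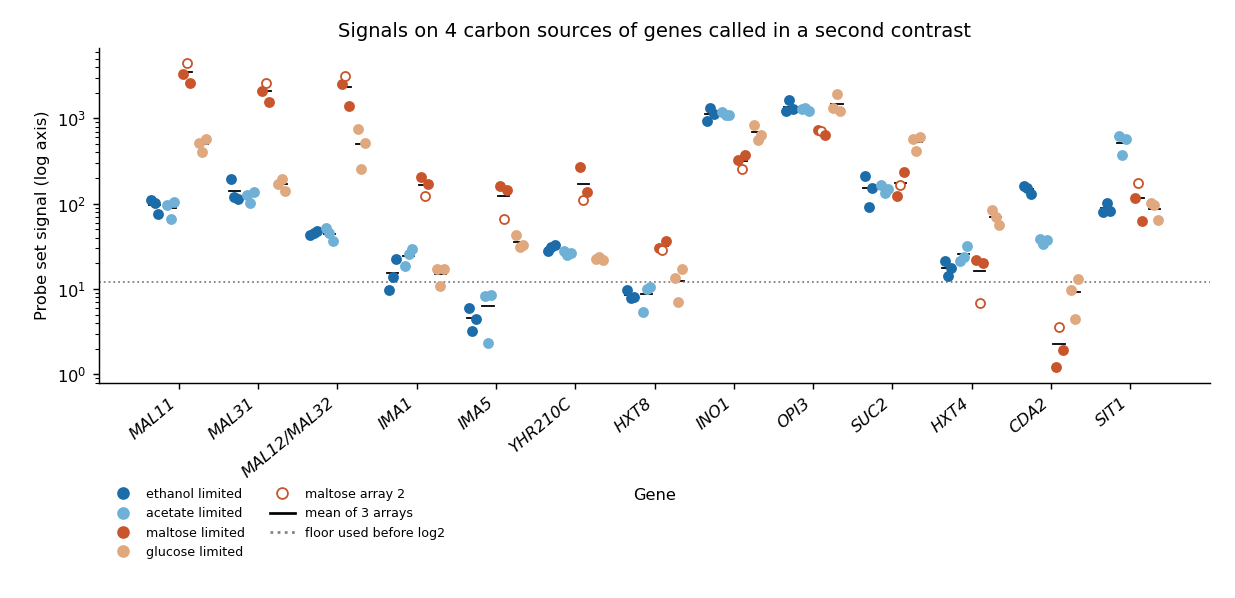
Probe set signals on a log axis for genes called in the maltose against glucose or the ethanol against acetate contrast, by carbon source, with an open circle for maltose array 2, a bar for the mean of 3 arrays and a dotted line at the floor of 12. Maltose points lie above all others from MAL11 to HXT8 and below all others for INO1 and OPI3.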

How the data were processed

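Affymetrix signals of the 6 ethanol and maltose arrays were compared, in a model that also held the 3 acetate and 3 glucose arrays. The deposited values are linear probe set signals (intensity), scaled by the authors to the same 2% trimmed mean, as the files show. Per the submitters' processing notes MAS5 made the ethanol, maltose and acetate signals, and for the glucose arrays no software is named in the sources used here. Signals were rescaled to 1 trimmed mean, floored at 12 and log2 transformed. Of 9335 probe sets 60 controls and 2479 dim probe sets were left out. R 4.3.3 and limma 3.58.1 then estimated 1 mean per source for every probe set, using lmFit, contrasts.fit and an eBayes intensity trend, with Benjamini-Hochberg adjustment over the 6796 probe sets. The ± of a log2 change is its limma SE for 3 against 3 arrays. Its spread was estimated over all 12 arrays with the eBayes trend, so the acetate and glucose arrays enter it too. "At least" folds are against the floor. The brightest probe set stood for a gene in lists. The code was tested on simulated data.

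Members and gene lists were chosen with earlier results of these data known. Named genes were the 10 highest and 10 lowest calls, up to 4 calls or 2 members of a list, a fixed set such as PCK1 and MAL11, and the calls shared with another contrast. Every call of maltose against glucose or ethanol against acetate was also named. So was every probe set called in all 20 alternatives fitted to the same probe sets. Others were added after their values were seen: ACO1, BDH1, CIT1, DIC1, ERT1, HXT4, MDH1, MDH2, PIR3, SFC1, SIT1, SNF1, SUC2, TRM13, YGR067C, YHR210C, and the chaperone, YGP1, YRO2 and MAL regulator values. Gene names came from the platform annotation and the RefSeq gene table. No sequence or coordinate is printed, since no genome of a build named by the files was used here. Alternatives changed scaling, floor, filter, arrays, weights, the 3'/5' ratio and blocks for code letter and replicate number.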

Additional observations from a re-analysis of the deposited data

Results flagged for a closer look

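Some changes against ethanol or maltose depended on which other source was used, by a limma test of the difference itself (adjusted p under 0.05). That test is the same as the ethanol against acetate and maltose against glucose contrasts above, so it adds no further result. Of 6796 probe sets, 2 changed differently against maltose on ethanol and on acetate: CDA2, higher on ethanol by log2 2.03, and SIT1, with a difference of log2 -2.52.

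Against ethanol, 14 probe sets changed differently with maltose and with glucose as the sugar. Higher on maltose than on glucose were MAL31 at log2 3.61, IMA1 at log2 3.42, the probe set shared by IMA1, IMA2, IMA3 and IMA4 at log2 2.89, YHR210C at log2 2.81, MAL11 at log2 2.79, an unnamed probe set at log2 2.60, the shared MAL12 and MAL32 probe set at log2 2.27, IMA5 at log2 1.71 and HXT8 at log2 1.18. Lower on maltose than on glucose were HXT4 at log2 -1.98, SUC2 at log2 -1.85 and -1.64 on 2 probe sets, INO1 at log2 -1.10 and OPI3 at log2 -1.08. CDA2, IMA5 and HXT8 passed the filter through the arrays of 1 source alone, which favours their differences here. Groups of 3 arrays are too small for the test of a single array that stands far from the others.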

How the results depend on the processing

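The 473 calls between ethanol and maltose, 325 higher and 148 lower on ethanol, changed in number under the alternatives. None took the opposite sign, and 46 had no change left with a floor of 50. The cause of the changes in number was not tested, apart from fewer arrays or fewer probe sets where the setting itself removes them. The counts were 229 calls (123 higher, 106 lower) with the 6 ethanol and maltose arrays alone, 322 (207, 115) with the 9 ethanol, acetate and maltose arrays, 335 (100, 235) after median centring, 291 (210, 81) with a floor of 50, 272 (196, 76) with no filter and 358 (214, 144) at a mean signal of at least 100. They were 411 (309, 102) with no intensity trend, 1554 (1026, 528) with array weights, 169 (102, 67) with a covariate for the 3'/5' ratio, 145 (63, 82) with the code letter as a block and 148 (76, 72) with arrays of code letter P. Ethanol array 1 alone gave 75 (35, 40), and 48 (25, 23) without maltose array 2, a setting chosen after seeing the data. Leaving out 1 array gave 177 to 1073 calls, 107 to 825 of them higher and 70 to 248 lower. Quantile normalization gave 474 (262, 212) and log2(signal + 16) 479 (325, 154). Replicate numbers were taken as not pairing the cultures, since deviations of same-numbered arrays correlated at -0.12, 0.23 and -0.08. The replicate block gave 509 calls (346, 163), 16 for maltose against glucose and 2 for ethanol against acetate. The 14 calls of maltose against glucose became 9 at a mean signal of at least 100, 443 with array weights, 23 with the letter block, 31 with letter P and 8 with ethanol array 1 and no maltose array 2, and 8 to 154 without 1 array. The 2 calls of ethanol against acetate became 1 with median centring and at a mean signal of at least 100, 5 with a floor of 50, 447 with weights and 0 with ethanol array 1 alone, with or without maltose array 2, and 2 to 4 without 1 array. Of 133 named probe sets 105 were called, 30 of them in every alternative that tested them. Being called, also under all alternatives, was itself a reason for naming, so these counts carry no support. Signals near the floor of 12 limit folds to bounds.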
